A study of Mus musculus with 12 samples.

Results

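Mouse bone marrow-derived dendritic cells that had been exposed to lipopolysaccharide (LPS) for 6 h were compared with cells taken at 0 h without LPS. The comparison was chosen by the labels alone and holds 6 of the 12 arrays of the series: 3 at 6 h and 3 unstimulated, with 1 array for each of the donors A, B and C in either group. The marrow came from femur and tibia, B and T cells had been removed with antibodies and magnetic beads, and the remaining cells had spent 5 days in medium that held 10 ng/ml GM-CSF together with 5 ng/ml IL-4. Both groups share all of this and differ in LPS at 100 ng/ml for 6 h. The other 6 arrays were of cells after 1 h and 24 h with the same LPS. The labels give no strain, sex or age, name no sort of the cultured cells, and do not say whether a donor letter stands for 1 animal or for the same animal in each group. The labels name no unstimulated culture kept until 6 h, so LPS and 6 h more in culture cannot be told apart. Each array set 750 ng of Cy5-labelled cRNA of 1 sample against a Cy3-labelled pool of mouse RNA, the same on every array. A value is therefore a log2 ratio of sample to pool, and a change is the mean ratio at 6 h minus the mean of unstimulated cells.

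LPS, a lipid of the outer membrane of Gram-negative bacteria, is bound by Cd14 and Ly96 and signals through Tlr4. The first arm of that signal runs through the adaptor Myd88 to NF-kB and MAP kinases and drives cytokine and chemokine genes. The other arm runs through the adaptor Ticam1 (TRIF) and the factor Irf3 to interferon beta, which leaves the cell, binds Ifnar1 and Ifnar2 and turns on interferon-stimulated genes. Dendritic cells that receive the signal mature: they take up less antigen, present more of it and display costimulatory molecules.

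Promoter sequences are shown first because genes of both arms stand among the largest rises. They are from RefSeq on GRCm38.p6 and give the 250 bases before the annotated start, 5′ to 3′ on the strand of the gene. The capitals in the first 4 mark matches on either strand to the core of the interferon-stimulated response element, which reads GAAA, then any 2 bases, then GAAA. These 4 had the largest rises among genes that hold such a match, so its presence in them was fixed by the choice. Il6, Oasl1 and Nts rose more than Ifit1 and hold no such match in this window. Rsad2 lies at chr12:26456453-26456702 on the minus strand, Isg15 at chr4:156200819-156201068 on the minus strand, Ifit1 at chr19:34640639-34640888 on the plus strand and Cxcl10 at chr5:92348890-92349139 on the minus strand.
Rsad2: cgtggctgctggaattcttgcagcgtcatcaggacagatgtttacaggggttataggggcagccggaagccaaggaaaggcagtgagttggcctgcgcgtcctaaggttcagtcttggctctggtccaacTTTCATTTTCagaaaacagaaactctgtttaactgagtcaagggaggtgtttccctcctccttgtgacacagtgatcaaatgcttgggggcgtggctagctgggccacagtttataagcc
Isg15: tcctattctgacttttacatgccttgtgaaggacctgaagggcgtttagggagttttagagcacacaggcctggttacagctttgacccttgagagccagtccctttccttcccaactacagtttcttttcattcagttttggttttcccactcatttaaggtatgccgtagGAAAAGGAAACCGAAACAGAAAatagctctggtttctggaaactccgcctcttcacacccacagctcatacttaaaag
Ifit1: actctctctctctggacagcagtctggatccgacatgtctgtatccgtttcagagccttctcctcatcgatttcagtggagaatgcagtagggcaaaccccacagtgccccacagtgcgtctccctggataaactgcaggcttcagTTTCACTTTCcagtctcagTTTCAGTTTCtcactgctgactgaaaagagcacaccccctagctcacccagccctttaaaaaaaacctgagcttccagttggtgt
Cxcl10: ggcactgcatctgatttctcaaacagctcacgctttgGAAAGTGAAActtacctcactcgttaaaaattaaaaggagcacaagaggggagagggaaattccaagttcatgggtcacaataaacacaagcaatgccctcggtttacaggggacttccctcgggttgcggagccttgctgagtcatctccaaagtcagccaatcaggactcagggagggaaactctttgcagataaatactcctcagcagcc
Isg15 holds 3 overlapping matches, Ifit1 holds 2, and Rsad2 and Cxcl10 hold 1 each.

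The next 4 promoters are of genes that rose and carry on either strand an NF-kB motif that reads GGGA, any base, then TTTCC. The capitals mark that motif, and in Gbp5 also an interferon-stimulated response element further from the start. Il6 lies at chr5:30012864-30013113, Cxcl3 at chr5:90785851-90786100 and Gbp5 at chr3:142496684-142496933, all on the plus strand, and Nfkbia at chr12:55492648-55492897 on the minus strand.
Il6: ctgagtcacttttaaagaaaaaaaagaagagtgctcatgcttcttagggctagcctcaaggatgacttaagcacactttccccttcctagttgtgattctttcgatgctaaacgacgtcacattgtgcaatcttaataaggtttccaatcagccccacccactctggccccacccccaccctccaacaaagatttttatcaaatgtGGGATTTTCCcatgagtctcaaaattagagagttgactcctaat
Cxcl3: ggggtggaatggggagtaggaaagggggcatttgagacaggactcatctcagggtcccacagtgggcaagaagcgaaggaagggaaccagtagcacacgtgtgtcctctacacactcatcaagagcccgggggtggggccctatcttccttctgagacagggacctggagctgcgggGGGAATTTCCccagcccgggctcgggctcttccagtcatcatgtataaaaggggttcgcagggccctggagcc
Gbp5: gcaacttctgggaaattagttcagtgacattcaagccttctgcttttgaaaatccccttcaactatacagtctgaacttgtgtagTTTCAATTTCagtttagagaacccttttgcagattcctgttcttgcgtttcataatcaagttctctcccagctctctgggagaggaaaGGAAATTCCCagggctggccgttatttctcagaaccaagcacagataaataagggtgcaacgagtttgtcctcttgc
Nfkbia: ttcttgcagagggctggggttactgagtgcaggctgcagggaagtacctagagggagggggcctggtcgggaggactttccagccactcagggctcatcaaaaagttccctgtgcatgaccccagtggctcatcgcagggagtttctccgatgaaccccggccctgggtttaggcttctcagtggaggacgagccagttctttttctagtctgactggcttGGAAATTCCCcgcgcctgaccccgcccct
The match ends 35 bases before the start in Il6, 64 in Cxcl3, 68 in Gbp5 and 20 in Nfkbia.

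The last is the promoter of Cdc20, a mitotic gene among the largest falls, at chr4:118437344-118437593 on the minus strand. Its capitals mark TTTGAA, the cell cycle homology region, and CCAAT, which occurs in it on both sides of that motif. This promoter was chosen from those that hold a motif.
Cdc20: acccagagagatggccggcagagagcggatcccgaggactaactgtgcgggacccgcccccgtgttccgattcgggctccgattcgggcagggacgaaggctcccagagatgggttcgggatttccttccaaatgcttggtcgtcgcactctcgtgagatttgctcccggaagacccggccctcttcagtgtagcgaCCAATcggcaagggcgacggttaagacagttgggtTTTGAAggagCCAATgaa

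Over the table of 32851 mouse promoters, the interferon-stimulated response element occurred in 2.98% and, among promoters of the genes tested here, in 2.84%. It occurred in 7.35% of 721 promoters of genes called higher by at least 2-fold and in 1.96% of 664 of genes called lower by at least 2-fold. Among promoters of the 100 called genes with the largest rise that stand in the table, 20 of 92 (21.7%) held it. In promoters of interferon-induced GTPases it stood in 8 of 10, but in 9 of 32 of antiviral effectors. It stood in 3 of 13 promoters of Isg15 conjugation and interferon-induced ubiquitin ligases. The NF-kB motif was rarer, in 0.356% of all promoters, 0.427% of those of tested genes and 1.39% of those of genes at least 2-fold higher. It was found in 3 of 17 chemokine promoters and in 3 of 35 promoters of NF-kB subunits and regulators. CCAAT, counted on both strands, stood in 35.4% of promoters of tested genes, in 19 of 35 promoters of replication genes and in 25 of 33 promoters of mitosis genes. TTTGAA stood in 11.1% of promoters of tested genes, in 10 of 33 of mitosis genes and in 4 of 35 of replication genes. It stood in 12.8% of promoters of genes at least 2-fold lower, 12.9% of those at least 2-fold higher, 5 of 10 of interferon-induced GTPases and 7 of 32 of antiviral effectors. A match describes the letters and does not show that a factor binds there. The short motifs can lie inside longer ones, and a gene may have several promoters in the table.

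The arrays lay on 4 slides, read from the file headers, and no slide held both groups. Slide 1 carried the 3 unstimulated arrays and 1 array of 1 h. Slide 3 carried donors A and B at 6 h with 1 array of 1 h. Slide 4 carried the 6 h array of donor C with 2 arrays of 24 h, and slide 2 carried 1 array of 1 h and 1 of 24 h. Within these 6 arrays, group and slide cannot be told apart. The 1 h and 24 h arrays join the slides, so a fit with slide as a fixed block over all 12 arrays was run beside the fit without it. Slide 1 is joined to the other slides only by its 1 array of 1 h. Every change and call with slide in the fit therefore rests on that array. The scanner software marked 48.2 to 57.6% of probes of the 6 arrays as well above background in the Cy5 channel, with no spot saturated. Extreme local backgrounds occurred on slide 3. The lowest spot signal less its local background was -71631 on the 6 h array of donor B and -365 on that of donor A. It was -21 to -23.5 on the rest of the 6 arrays. Arrays of 1 group correlated at r of 0.96 to 0.98 across the genes tested, and the median SD over the 3 arrays was 0.14 in unstimulated cells and 0.15 at 6 h.

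The label was checked against markers. Itgax (Cd11c), an integrin on the list of dendritic cell markers, was at 4.44, 4.30 and 4.40 in unstimulated cells of donors A, B and C and at 4.50, 4.53 and 4.26 at 6 h. H2-Ab1, an MHC class II chain, was at 4.72, 4.31 and 4.55 and then 4.67, 4.63 and 4.41. Both stood far above the reference pool on all 6 arrays, and neither differed by the test. Of 12 markers of conventional dendritic cells, 9 were well above background on all 3 unstimulated arrays and 9 on all 3 arrays at 6 h, while Clec9a and Cd209a were not on any of the 6. Detection did not single out this cell type. Markers well above background on all unstimulated arrays were 10 of 13 for neutrophils, 9 of 10 for plasmacytoid cells, 8 of 10 for macrophages and monocytes, 8 of 11 for mast cells and basophils, 9 of 14 for stromal and endothelial cells, 6 of 10 for B cells and 2 of 10 for NK cells.

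At 6 h, 4399 of 11108 genes had changed (39.6%; limma, Benjamini-Hochberg adjusted p under 0.05), 1785 upward (16.1%) and 2614 downward (23.5%). The median change over all genes tested was -0.04. A change of at least 2-fold together with that p, the stricter rule, was met by 1314 genes (11.8%), 675 higher (6.08%) and 639 lower (5.75%). Falls were more numerous but smaller: 194 genes rose and 84 fell by at least 4-fold, and 85 rose and 5 fell by at least 8-fold. The arrays of the groups did not overlap for 5997 genes (54%), of which 4351 were called (39.2% of all genes). The balance depended on the scaling, since centring each array on its median in place of loess gave 1359 genes higher and 656 lower. With slide as a fixed block, 1950 genes were called (17.6%), of which 948 were higher (8.53%) and 1002 lower (9.02%). Of the 1314 genes changed at least 2-fold, 1116 kept their call with that block. For gene lists below, counts given with slide in the fit or with median centring were made anew in that setting. They can include genes outside the 4399, unlike calls that are said to have held or been kept.

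**Figure D1:**
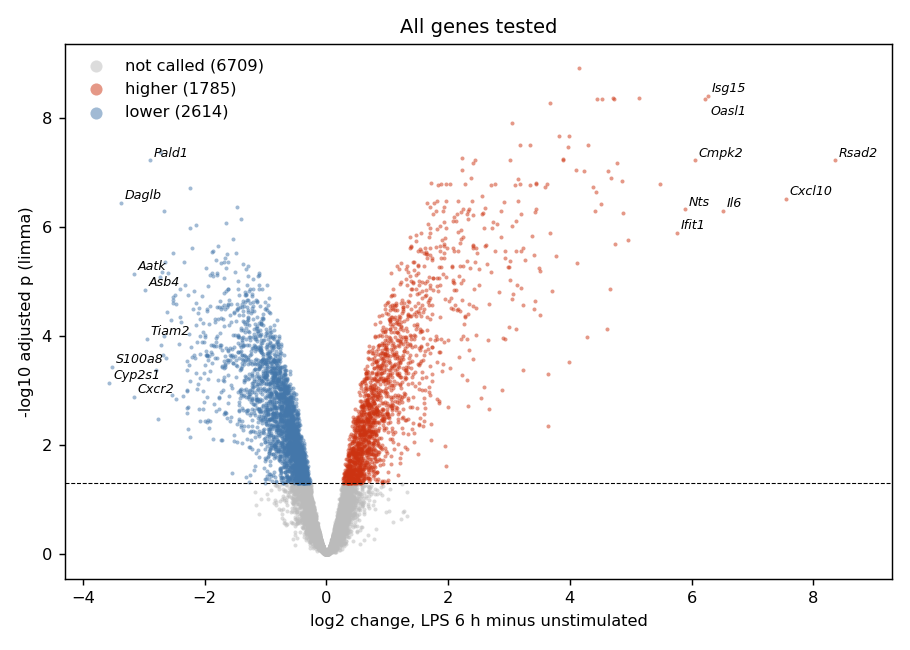
Each point is 1 of the 11108 genes tested, with the log2 change from unstimulated cells to 6 h on the x axis and -log10 of the limma adjusted p on the y axis; red marks the 1785 genes called higher, blue the 2614 called lower, and the dashed line an adjusted p of 0.05. Rises reach a log2 change of 8.35 (Rsad2) and falls reach -3.57 (Cyp2s1).

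The largest rise was that of Rsad2, which encodes the antiviral enzyme viperin. Its log2 ratio was -1.29, -1.23 and -1.27 in unstimulated cells and 7.10, 7.71 and 6.45 at 6 h. The groups were thus separated by more than the whole spread within either, and the change was 8.35, SE 0.44, adjusted p = 6.1e-08. Isg15, a ubiquitin-like protein attached to other proteins after interferon, went from -1.89, -2.00 and -2.00 to 4.37, 4.37 and 4.18 with little spread (6.27, SE 0.22, adjusted p = 4.0e-09). Cxcl10, a chemokine that attracts activated T cells, went from -1.13, -0.90 and -1.54 to 6.41, 7.12 and 5.54. It was well above background on 1 of 3 unstimulated arrays and on all 3 at 6 h (7.55, SE 0.49, adjusted p = 3.1e-07). Among the 20 largest rises, genes outside the interferon and cytokine groups were Nts, which encodes the peptide neurotensin (5.89), Mmp13, a collagenase (4.66), Clec4e, the lectin Mincle (4.78), and Hdc, which makes histamine (4.63). Nts was at -0.32, -0.07 and -0.62 before and 5.84, 5.78 and 5.05 at 6 h.

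Falls were led by Cyp2s1, a cytochrome P450, at 1.47, 1.36 and 1.38 before and -1.77, -3.25 and -1.47 at 6 h (-3.57, SE 0.63, adjusted p = 0.00072). The donor B array at 6 h was the lowest of the 3. Daglb, a lipase that makes the endocannabinoid 2-arachidonoylglycerol, was at 2.49, 2.41 and 2.73 and then -0.92, -1.17 and -0.40 (-3.37, SE 0.22, adjusted p = 3.6e-07). Other genes in the 20 largest falls were the phosphatase-like Pald1 (-2.89), the exchange factor Tiam2 (-2.95), the nuclease Dna2 (-2.74), the centrosomal Cep131 (-2.67), the kinesin Kif5a (-2.65), the receptor Cd244a (-2.68) and the haematopoietic transcription factor Nfe2 (-2.66). Pald1 was well above background on 2 of 3 arrays at 6 h, and Aatk, a kinase (-3.16), on 1 of 3. Cd24a, a surface glycoprotein of dendritic cell subsets and granulocytes, went from 2.62, 2.80 and 2.54 to -0.09, 0.10 and -0.26. Its SE was the smallest relative to its change among the 20 largest falls (-2.74, SE 0.14, adjusted p = 4.3e-08).

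**Figure D2:**
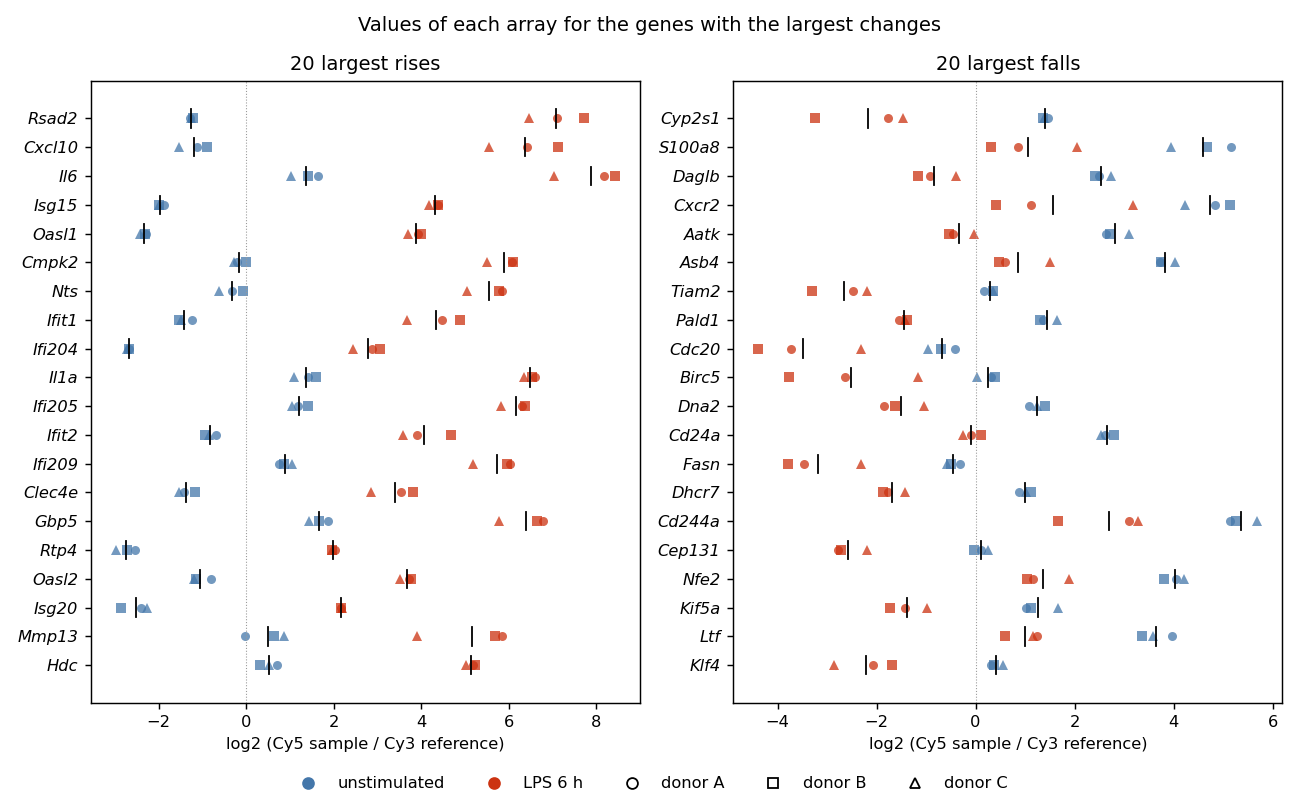
Each point is the log2 ratio of sample to reference pool on 1 array for the 20 genes with the largest rise (left) and the 20 with the largest fall (right), blue for unstimulated cells and red for 6 h, with the donor as the shape and black bars for group means. The 2 groups do not overlap in any of these genes, which was part of how they were chosen, and the 6 h array of donor C often lies nearest to the unstimulated arrays.

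The interferon group comprises ligand, receptor and signalling genes first. Ifnb1, interferon beta itself, was not well above background on any unstimulated array and was so on all 3 at 6 h. No size is given where, as here, the bound read from the sample channel exceeded the change of the ratio. Its call (adjusted p = 0.00049) was lost with slide in the fit (adjusted p = 0.069). Of 19 genes of ligands, receptors and signalling, 12 rose and 1 fell, with a median of 1.16. Irf7, the factor that amplifies type I interferon, went from -1.78, -2.10 and -1.68 to 1.51, 1.66 and 1.59 (3.44, SE 0.24, adjusted p = 4.8e-07). Stat2 (2.81) and Irf9 (1.35), parts of the complex that binds the response element, rose too, as did both receptor chains, Ifnar2 (1.25) and Ifnar1 (1.20). Ifngr1, a chain of the interferon gamma receptor, was the member that fell, from 1.30, 1.32 and 1.61 to -0.28, -0.12 and -0.26 (-1.63, SE 0.14, adjusted p = 3.1e-06).

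Target genes of interferon rose in nearly every case. All 14 tested GTPases of the guanylate-binding and immunity-related families, which attack the vacuoles of intracellular pathogens, rose, with a median of 3.43, and all 14 held with slide in the fit. Gbp5 went from 1.86, 1.67 and 1.44 to 6.78, 6.64 and 5.77 (4.74, SE 0.39, adjusted p = 2.0e-06). Further members were Gbp3 (3.96), Ifi47 (3.89), Gbp2 (3.67), Irgm1 (3.44) and Tgtp1 (3.43), and the smallest rise was that of Gvin1 (1.03). Iigp1 and Gbp6 were not well above background on any unstimulated array. They were at least 12.2-fold and 11.0-fold higher at 6 h, a bound set against the weakest signal called above background (adjusted p = 1.3e-06 and 6.4e-06).

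Of 30 antiviral effectors, 27 rose and 0 fell, with a median of 2.23. After Rsad2 came Oasl1, an inhibitor of Irf7 translation (6.22), Cmpk2, a mitochondrial nucleotide kinase (6.05), and Ifit1, which binds foreign RNA (5.76). Ifit2 and Slfn5 were not well above background in unstimulated cells and were on all 3 arrays at 6 h (adjusted p = 5.5e-07 and 1.6e-07). The 3 members that did not pass were Apobec3 (0.30), Ifitm1 (-0.42) and Ifi44, which was not well above background in unstimulated cells. All 12 tested genes of Isg15 conjugation and interferon-induced ubiquitin ligases rose (median 1.79), among them the deconjugating enzyme Usp18 (4.37), the ligase Rnf213 (4.16) and the activating enzyme Uba7 (2.09). In the PARP family, 6 of 9 rose, led by Parp14 (3.14), Parp12 (2.76) and Parp9 (1.73). Parp1, the nuclear DNA damage enzyme of the family, fell from -1.57, -1.91 and -1.38 to -3.09, -2.88 and -2.74 (-1.28, SE 0.15, adjusted p = 3.6e-05).

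Sensors of microbial molecules were grouped by where they act. Of 16 cytosolic sensors and inflammasome genes, 13 rose and 2 fell, with a median of 1.35. The largest were the Pyhin genes Ifi204 (5.48) and Ifi205 (4.95), the RNA sensors Ifih1 (4.44) and Ddx58 (3.35), and Casp4, the caspase that binds cytosolic LPS (3.59). Casp4 was at -1.07, -0.90 and -1.17 and then 2.60, 2.80 and 2.24. The members that fell, the adaptors Pycard (-0.83) and Mavs (-0.61), lost their calls with slide in the fit (adjusted p = 0.19 and 0.36). Of 23 Toll-like receptors, co-receptors and adaptors, 10 rose and 1 fell (47.8% called, against 39.6% over all genes tested). They include the LPS co-receptors Cd14 (2.84) and Ly96 (1.31) and Tlr7 (2.25), Tlr1 (2.16), Tlr2 (1.60) and Tlr6 (1.19). Tlr4 itself was at -0.18, 0.13 and 0.06 before and -0.66, -0.24 and -0.62 at 6 h and did not pass (adjusted p = 0.2). Cnpy3, a chaperone that folds Toll-like receptors, fell (-0.93, SE 0.12, adjusted p = 6.9e-05).

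Uptake receptors were mixed, with changes in both directions. Among 11 C-type lectins, 4 rose and 2 fell (2 and 1 with slide in the fit). Their share called was 54.5%, against 39.6% over all genes tested. Clec4e went from -1.42, -1.18 and -1.54 to 3.54, 3.80 and 2.85, and Ly75 (DEC-205), an endocytic receptor of dendritic cells, rose by 2.16. Clec4b1 was at 6.07, 6.32 and 5.99 and then 4.45, 4.36 and 5.02 (-1.52, SE 0.38, adjusted p = 0.0064), but the scanner software's own processed signals gave 0.20. Of 26 scavenger, Fc and apoptotic cell receptors, 8 rose and 3 fell (8 and 1 with median centring). The share of these receptors called was 42.3%, against 39.6% over all genes tested. Marco, a scavenger receptor for bacteria, went from 2.31, 2.06 and 1.56 to 6.28, 6.32 and 6.21 (4.29, SE 0.21, adjusted p = 3.1e-08), and Scarb1, the receptor for high density lipoprotein, from -0.05, -0.30 and 0.15 to -1.61, -1.73 and -1.18 (-1.44, SE 0.19, adjusted p = 0.0001). Mrc1, the mannose receptor, was at 3.02, 3.67 and 3.73 and 3.38, 4.03 and 3.19 and did not pass.

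Secreted signals rose widely. Of 28 cytokine genes, 20 rose and 1 fell (17 and 1 with slide in the fit), and the median was 1.59. Il6 went from 1.63, 1.41 and 1.02 to 8.17, 8.43 and 7.03 (6.52, SE 0.46, adjusted p = 5.1e-07). Il1a, an alarm cytokine, went from 1.41, 1.59 and 1.08 to 6.60, 6.53 and 6.34 (5.13, SE 0.19, adjusted p = 4.4e-09), and Il1b (4.51) and Tnf (4.44) rose as well. Il1rn, the antagonist of both Il1 ligands, rose by 2.35. Il23a and Il12a, the specific chains of IL-23 and IL-12, were not well above background in unstimulated cells and were so on all 3 arrays at 6 h, with calls at adjusted p = 0.00096 and 2.7e-05. Il16, a T cell attractant, fell (-1.02, SE 0.16, adjusted p = 0.00028).

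Of 23 chemokines, 13 rose and 0 fell (11 and 0 with slide in the fit), with a median of 1.29. Besides Cxcl10 these include the neutrophil attractant Cxcl3 (4.60) and the ligands of Ccr1, Ccl5 (4.42), Ccl4 (3.23) and Ccl3 (2.62), with the monocyte attractants Ccl7 (3.01) and Ccl2 (2.65). Cxcl3 was at 1.69, 2.50 and 1.64 and then 6.37, 7.75 and 5.53. Cxcl1, another neutrophil attractant, was not well above background in unstimulated cells and was at 0.14, 1.53 and -1.80 at 6 h. It was among the 6 called genes with the largest SD at 6 h, with donor C close to the unstimulated level, and its call was lost with slide in the fit (adjusted p = 0.27). Ccl22 (1.10) and Ccl17 (0.25), both ligands of Ccr4 and induced by IL-4, did not pass.

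Receptors for these signals moved both ways: of 16 chemokine and chemoattractant receptors, 6 rose and 4 fell (4 and 2 with slide in the fit, 5 and 2 with median centring). Ccrl2, a receptor that presents chemerin without signalling (3.51), and Fpr2, a receptor for formylated bacterial peptides (2.87), rose most. Cxcr2, a receptor of Cxcl1 and Cxcl3, was at 4.84, 5.15 and 4.23 in unstimulated cells and at 1.13, 0.41 and 3.18 at 6 h (-3.17, SE 0.61, adjusted p = 0.0013). The groups did not overlap, although donor C had fallen far less than the other donors, and the probe was above background on 2 of 3 arrays at 6 h. Cxcr4, which holds cells in the marrow, fell by 1.38 on the log2 scale. Ccr7, the receptor that guides mature dendritic cells to lymph nodes, was at 5.32, 4.77 and 5.01 and then 6.11, 5.87 and 5.48 (0.78, SE 0.26, adjusted p = 0.029). With local backgrounds taken as deposited it was at -0.13, with the opposite sign. In the TNF and TNF receptor superfamily 12 of 22 rose, led after Tnf by Tnfsf15 (3.04), Tnfrsf1b (2.46), Tnfsf8 (2.41) and Lta (2.33). The other 4 called members fell, none of them by more than 1 on the log2 scale, and 0 of these falls held with slide in the fit.

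Genes that remodel the surroundings of the cell, and those of complement and the acute phase, were next. Of 26 metalloproteinase, inhibitor and plasminogen activation genes, 14 rose and 3 fell (8 and 1 with slide in the fit). Mmp13 went from -0.02, 0.64 and 0.86 to 5.85, 5.69 and 3.91 (4.66, SE 0.48, adjusted p = 1.4e-05), and the inhibitor Timp1 rose by 3.71. F3, the tissue factor that starts coagulation, rose by 2.25, and Plau, urokinase, fell (-1.27, SE 0.17, adjusted p = 0.00011). Of 18 complement and acute phase genes, 9 rose and 0 fell. Cfb (3.44), Saa3 (3.42) and Ptx3 (3.41) rose most. Cfb, a protease of the alternative complement pathway, went from 1.64, 1.11 and 1.14 to 4.83, 4.94 and 4.42. Of 40 integrin, adhesion and cytoskeleton genes, 13 rose and 8 fell (12 and 5 with median centring), with Marcksl1 (3.12), a regulator of actin at the membrane, and the integrin chain Itga4 (1.78) at the top and Tiam2 (-2.95) at the bottom. The share called was 50% for complement and acute phase genes and 52.5% for this group, against 39.6% over all genes tested.

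NF-kB genes rose together with their own inhibitors: of 28 subunits and regulators, 24 rose and 0 fell (20 and 0 with slide in the fit), and the median was 1.01. Nfkbiz, a nuclear cofactor needed for Il6, went from -2.47, -2.46 and -2.51 to 2.19, 2.14 and 0.58 (4.11, SE 0.38, adjusted p = 4.7e-06). The inhibitors Nfkbia (2.28) and Tnfaip3 (A20, 2.34) rose more than the subunits Nfkb2 (1.65), Relb (1.18), Rela (0.98) and Nfkb1 (0.90), differences between genes that were not tested. Nfkbia was at 1.26, 0.97 and 1.52 and then 3.69, 3.71 and 3.19. Inhibitors of other pathways changed in both directions, 9 of 25 higher and 8 lower. Socs3, which blocks Stat3 signalling (2.33), and Rgs1 (2.42) rose, and the ERK phosphatases Dusp7 (-1.68) and Dusp6 (-1.41) fell.

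Of 35 AP-1, ATF and immediate early factors, 10 rose and 8 fell (7 and 2 with slide in the fit). Their share called was 51.4%, against 39.6% over all genes tested. Batf2 (1.79), Mxd1 (1.65), Batf (1.54) and Klf6 (1.50) were the largest rises. Klf4, a factor of monocyte differentiation, went from 0.31, 0.37 and 0.56 to -2.08, -1.69 and -2.85 (-2.62, SE 0.31, adjusted p = 3.7e-05). Donor C had the lowest level of Klf4 at 6 h, unlike its place in most of the changes. Of 27 transcription factors of dendritic cells and macrophages, 11 rose and 5 fell (8 and 2 with slide in the fit, 11 and 3 with median centring). The rises include Stat5b (1.68), Irf8 (1.56), Stat5a (1.53), Id2 (1.48) and Irf4 (1.38), of which Irf8, Id2 and Irf4 direct dendritic cell subsets.

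**Figure D3:**
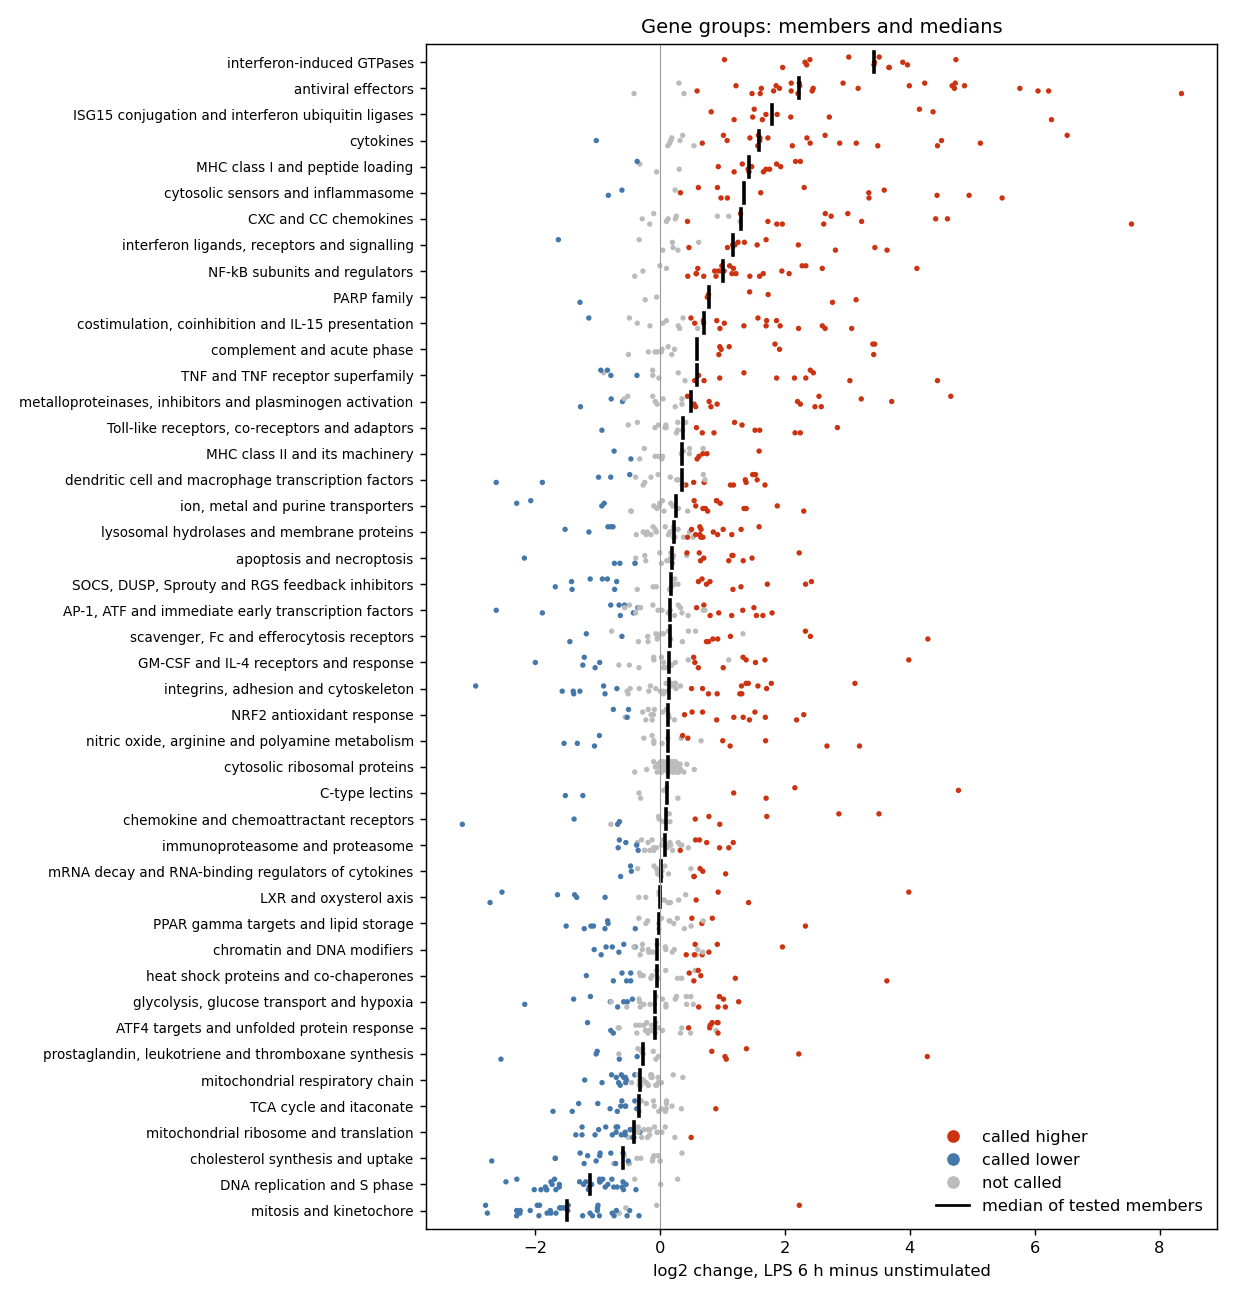
Each point is the log2 change from unstimulated cells to 6 h of 1 tested member of the gene group named on the y axis, red where called higher, blue where called lower and grey where not called, and black bars are group medians. Groups run from a median of 3.43 for the interferon-induced GTPases to -1.50 for mitosis genes.

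Antigen presentation by MHC class I and class II differed in these counts. Of 17 class I and peptide loading genes, 13 rose and 1 fell, with a median of 1.43. Tap1, a chain of the transporter that brings peptides into the endoplasmic reticulum, went from 0.48, -0.05 and 0.87 to 2.77, 2.40 and 2.65 (2.17, SE 0.25, adjusted p = 3.1e-05). Others were H2-T22 (2.25), Tapbpl (1.93), Tapbp (1.76) and B2m (1.32), but the class I genes are near-identical copies, so probes may read several of them. Of 18 class II genes, 5 rose and 2 fell, with a median of 0.36, and 2 and 0 held with slide in the fit. The share of class II genes called was 38.9%, against 39.6% over all genes tested. Ctsl, a lysosomal protease, rose by 1.59 and H2-Oa, a chain of a regulator of peptide exchange, by 0.62. H2-DMa fell (-0.74, SE 0.15, adjusted p = 0.0022), and its call was lost with slide in the fit (adjusted p = 0.053). Of 34 proteasome genes, 7 rose and 5 fell (35.3% called, against 39.6% over all genes tested). Psmb9, an immunoproteasome subunit (1.10), and Psme1, a subunit of its activator (0.75), were among the rises, and no fall held with slide in the fit.

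Costimulation is the second signal a T cell needs. Of 27 genes of costimulation, coinhibition and IL-15 presentation, 17 rose and 1 fell, with a median of 0.70. Cd80 and Cd86, the ligands of Cd28, were the classical members. Cd80 went from 1.53, 1.83 and 1.60 to 4.01, 3.76 and 3.84 (2.22, SE 0.18, adjusted p = 1.7e-06), and Cd86 from 2.36, 2.29 and 2.37 to 4.39, 4.51 and 3.88 (1.92, SE 0.17, adjusted p = 3.1e-06). Il15 and the chain that presents it, Il15ra, both rose (2.64 and 2.60), and Slamf7 rose most (3.07). Both ligands of the inhibitory receptor Pdcd1, Cd274 (1.03) and Pdcd1lg2 (0.91), rose as well.

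Nitric oxide and arginine genes changed at entry, use and branch points. Nos2, the inducible nitric oxide synthase, went from 0.24, 0.34 and 0.65 to 3.57, 4.07 and 3.17 (3.19, SE 0.27, adjusted p = 2.7e-06). Slc7a2, an arginine importer (2.67), and Gch1, which makes the cofactor of Nos2 (1.69), rose as well. Odc1, the first enzyme of polyamine synthesis, fell from 1.13, 1.16 and 0.74 to -0.45, -0.76 and -0.38 (-1.54, SE 0.23, adjusted p = 0.00024). In all, 7 of 19 genes of this group rose and 4 fell (4 and 2 with slide in the fit). Prostaglandin genes gave a reversal between the cyclooxygenases. Ptgs1, the constitutive one, went from 1.11, 1.21 and 1.31 to -1.44, -1.62 and -0.95 (-2.55, SE 0.31, adjusted p = 5.0e-05). Ptgs2, the inducible one, was not well above background in unstimulated cells and was at 2.88, 3.47 and 0.89 at 6 h, at least 18.1-fold higher (adjusted p = 0.0001), and donor C was lowest. The terminal synthase Ptges rose by 2.22 and the thromboxane synthase Tbxas1 fell (-1.02, SE 0.19, adjusted p = 0.00089).

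Falls prevailed among genes of sterol synthesis. Of 25 cholesterol synthesis and uptake genes, 0 rose and 13 fell, and the median was -0.59. With slide in the fit 8 of these falls held, and with median centring 4. Dhcr7, the last enzyme of cholesterol synthesis, went from 0.89, 1.11 and 1.02 to -1.77, -1.87 and -1.42 (-2.69, SE 0.26, adjusted p = 6.8e-06), and Sqle (-1.68) and Cyp51 (-1.28) followed. Ch25h, which makes 25-hydroxycholesterol, went the other way, from 1.10, 1.89 and 0.92 to 5.00, 6.59 and 4.26 (3.98, SE 0.62, adjusted p = 0.0003). Fatty acid synthase, Fasn, went from -0.32, -0.49 and -0.59 to -3.47, -3.78 and -2.31 (-2.72, SE 0.38, adjusted p = 0.00015), and the desaturase Scd2 (-2.53) and elongase Elovl6 (-1.64) fell too. The 20 genes of the liver X receptor and oxysterol axis, to which these belong, gave 4 rises and 6 falls. Of 25 targets of Pparg and genes of lipid storage, 4 rose and 8 fell (2 and 7 with slide in the fit, 4 and 3 with median centring), among the falls Pparg itself (-1.21) and Angptl4 (-1.50). The share called was 50% in the first of these 2 groups and 48% in the other, against 39.6% over all genes tested.

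Falls among mitochondrial genes were small. Of 27 genes of the TCA cycle, 12 fell and 1 rose (median -0.33; 6 and 0 with slide in the fit, 2 and 0 with median centring). Idh3a, a subunit of the NAD-dependent isocitrate dehydrogenase, had the largest fall, from -0.11, 0.35 and 0.05 to -1.80, -1.85 and -1.19 (-1.71, SE 0.28, adjusted p = 0.00037). Of 37 respiratory chain genes, 0 rose and 12 fell (median -0.32), led by Ndufa4 (-1.21) and Ndufs7 (-0.93). With slide in the fit 5 of these falls held, and with median centring 0. Of 35 genes of the mitochondrial ribosome, 1 rose and 18 fell (median -0.42), led by Mrpl18 (-1.35), Mrpl28 (-1.25) and Mrpl16 (-1.25). There, 9 falls held with slide in the fit and 4 falls with median centring. The share called was 48.1% for the TCA cycle, 32.4% for the respiratory chain and 54.3% for the mitochondrial ribosome. Over all genes tested it was 39.6%, and 23.5% of all genes fell. By contrast 0 of 52 cytosolic ribosomal proteins were called, with changes of -0.41 to 0.55 and a median of 0.12.

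Glycolysis and hypoxia genes had a median of -0.08, with 6 of 32 higher and 8 lower. Of these genes 43.8% were called, against 39.6% over all genes tested, and 3 were higher and 1 lower with slide in the fit and 5 and 2 with median centring. The glucose transporter Slc2a6 (1.26) and the hexokinase Hk3 (1.05) rose, and Pdk1, which blocks entry of pyruvate into mitochondria, fell (-1.11). Of 27 targets of the antioxidant factor Nfe2l2 (NRF2), 11 rose and 3 fell (5 and 0 with slide in the fit, 6 and 0 with median centring). Their share called was 51.9%, against 39.6% over all genes tested. Sod2, the mitochondrial superoxide dismutase, went from 0.51, 0.47 and 0.29 to 2.51, 2.90 and 2.43 (2.19, SE 0.18, adjusted p = 2.0e-06), and Fth1, the iron storage protein, rose by 2.30. Tfrc, the receptor that brings in iron, fell from 1.20, 1.48 and 0.95 to -1.19, -1.27 and -0.79 (-2.29, SE 0.37, adjusted p = 0.00041). Heat shock genes gave 6 rises and 6 falls among 23 (52.2% called), but 2 and 2 with slide in the fit and 5 and 1 with median centring. Hspa1a, the inducible Hsp70, was at 0.70, 0.33 and 0.50 and then 3.70, 5.93 and 2.79 (3.63, SE 0.85, adjusted p = 0.0044), high in every donor and highest in donor B, while Hspd1, the mitochondrial chaperonin, fell (-1.18). Of 31 genes of the ATF4 and unfolded protein response, 7 rose and 3 fell (32.3% called, against 39.6% over all genes tested). Counted anew, 6 rose and 1 fell with slide in the fit, and 9 and 0 with median centring. Of the calls themselves, 5 rises and 1 fall held with slide in the fit, and 6 and 0 with median centring. The count of rises was 1 without the 6 h array of donor A, 2 without that of donor B, 2 without the unstimulated array of donor A or of donor B, and 4 without that of donor C.

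Rises and falls both occurred in further groups. The share called was 47.5% for lysosomal genes, 50% for apoptosis and necroptosis, 57.1% for transport and 48.3% for GM-CSF and IL-4 genes. Over all genes tested it was 39.6%. Lysosomal genes gave 14 rises and 5 falls of 40 (4 and 4 with slide in the fit, 14 and 1 with median centring), with Manba, a mannosidase, the largest fall (-1.52). Among 28 apoptosis and necroptosis genes 10 rose and 4 fell (6 and 2 with slide in the fit, 7 and 1 with median centring). Cflar, which blocks caspase 8, rose by 2.23, and Casp6, an executioner caspase, went from 0.75, 0.52 and 1.25 to -1.30, -1.74 and -0.96 (-2.17, SE 0.32, adjusted p = 0.00022). In the group of ion, metal and purine transport, 12 of 28 rose and 4 fell (7 and 3 with slide in the fit, 11 and 2 with median centring), with P2ry6, a receptor for extracellular UDP, at -2.07. Receptors and targets of GM-CSF and IL-4 gave 9 rises and 5 falls of 29 (8 and 3 with median centring), with Cdh1 (E-cadherin) at -2.00. Chromatin modifiers gave 7 and 7 of 29, against shares over all genes of 16.1% upward and 23.5% downward. Counted anew, they gave 6 and 4 with slide in the fit and 8 and 1 with median centring. Of the calls themselves, 4 and 4 held with slide in the fit and 5 and 1 with median centring. Of 19 regulators of mRNA decay, 5 rose and 3 fell, of which 1 and 0 held with slide in the fit. The share of these regulators called was 42.1%, against 39.6% over all genes tested.

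Cell cycle genes fell more widely than any other function group listed, by count and by median. Of 36 genes of DNA replication and S phase, 33 fell and 0 rose, with a median of -1.11. Rrm2, the regulated subunit of ribonucleotide reductase, went from -0.64, -0.42 and -0.94 to -3.31, -3.53 and -2.57 (-2.47, SE 0.28, adjusted p = 2.6e-05), followed by the helicase subunit Mcm6 (-2.29) and the methylation reader Uhrf1 (-2.01). Of 38 mitosis and kinetochore genes, 34 fell and 1 rose, with a median of -1.50. Cdc20, which activates the anaphase-promoting complex, went from -0.41, -0.70 and -0.95 to -3.73, -4.39 and -2.32 (-2.79, SE 0.46, adjusted p = 0.00041). Aurka, a kinase of the spindle poles, fell by 2.24 on the log2 scale. The member that rose was Pttg1 (securin), named after its value was seen, from -1.03, -1.10 and -1.21 to 1.12, 1.27 and 0.96 (2.23, SE 0.12, adjusted p = 8.9e-08). With slide in the fit, 18 replication and 17 mitosis genes kept a fall, and with median centring 15 and 16. Birc5 (survivin) was at 0.30, 0.39 and 0.03 and then -2.63, -3.77 and -1.17 and Ccnb1 (cyclin B1) at -0.19, -0.10 and -0.43 and -2.63, -3.64 and -1.18. For both, donor B was lowest and donor C nearest to the unstimulated arrays, and their calls were lost with slide in the fit (adjusted p = 0.059 and 0.073).

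Markers of neutrophils moved in the same direction as these falls. Of 11 tested, 7 fell and 2 rose, with a median change of -1.32, and 5 falls and 2 rises held with slide in the fit. The median level of the list lay at 1.36 to 1.88 over the unstimulated arrays and at 0.45 to 1.14 over those at 6 h. S100a8, a calcium-binding protein abundant in neutrophils, was at 5.15, 4.67 and 3.94 and then 0.85, 0.31 and 2.04 (-3.52, SE 0.57, adjusted p = 0.00037), and Ltf, lactoferrin, at 3.98, 3.36 and 3.59 and 1.25, 0.59 and 1.17 (-2.64, SE 0.40, adjusted p = 0.00025). The granule proteins Ctsg (-1.60) and Mpo (-1.32) fell as well. Lcn2, also an acute phase protein, rose (1.91), and Csf3r, the G-CSF receptor, was not well above background in unstimulated cells and rose (adjusted p = 0.0013). Elane, a defining gene of granulocyte precursors, was not above background on any of the 6 arrays. The part of neutrophils in the other falls was not tested, and in a bulk sample fewer cells of a type and less RNA per cell cannot be told apart.

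Other marker lists changed less. Of 8 tested mast cell and basophil markers, 1 rose and 4 fell, and 0 of the falls held with slide in the fit. The rise was that of Hdc, at 0.70, 0.32 and 0.52 and then 5.18, 5.23 and 5.01, and Ms4a2 and Mcpt8 were not above background on any of the 6 arrays. The median level of that list was 0.57 to 0.68 in unstimulated cells and 0.23 to 0.42 at 6 h. Of 9 macrophage and monocyte markers 2 rose, Cd14 (2.84) and Mertk (0.78), and 1 fell, and of 10 dendritic cell markers 4 rose and 2 fell. B cell markers gave 0 calls of 6, eosinophil markers 0 of 5, and T cell markers 1 rise, the kinase Lck (1.80), and 2 falls of 7. The share called was 33.3% for macrophage and monocyte, 60% for dendritic cell and 42.9% for T cell markers. Over all genes tested it was 39.6%. Ms4a1, Pax5 and Ebf1 of B cells, Cd3d of T cells, Ncr1 and Prf1 of NK cells and Siglech of plasmacytoid cells were not above background on any of the 6 arrays. In plasmacytoid markers, 2 of 9 rose and 3 fell (2 and 0 with slide in the fit), and in stromal and endothelial markers Kdr, a receptor of Vegfa, and Pdgfrb (1.22) rose and 0 fell of 10. Kdr was not above background in unstimulated cells. NK cell markers gave 1 fall of 2 tested, Klrd1 (-1.57), and erythroid markers 1 of 6, Tfrc. Platelet and progenitor markers gave 1 fall of 6 and 1 of 7, Treml1 (-0.75) and Kit (-0.48), which were lost with slide in the fit (adjusted p = 0.11 and 0.45).

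The size of the changes differed between the arrays of the 3 donors at 6 h. Of 4396 called genes with a value on every array, the 6 h array of donor C lay nearest to the unstimulated mean in 3009, that of donor B in 866 and that of donor A in 521. The same order held over all 11100 tested genes with such values, called or not. There the change in the direction of the group mean was smallest in donor C for 6096, donor B for 2951 and donor A for 2053. Among genes called higher by at least 2-fold, the median change was 1.64 in donor A, 1.65 in donor B and 1.29 in donor C, and among those called lower by at least 2-fold it was -1.42, -1.54 and -1.08. For mitosis genes the medians were -1.56, -1.82 and -0.87. The sign of each median was the same in all 3 donors. For the genes called by at least 2-fold this follows from their choice by the same arrays. Donor C was also the only 6 h array on slide 4, so donor and slide cannot be told apart here. Without that array 4292 genes were called, and 1576 of them at 2-fold or more.

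**Figure D4:**
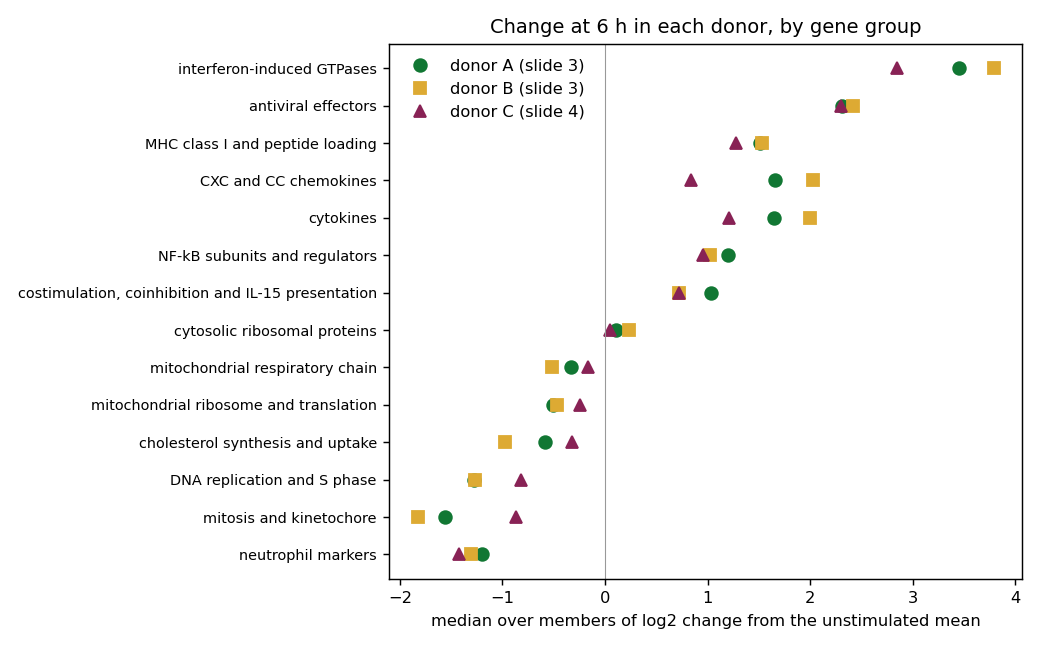
Each point is the median, over the tested members of a gene group, of the log2 change of the 6 h array of 1 donor from the mean of the unstimulated arrays; donors A and B lay on slide 3 and donor C on slide 4. For the mitosis group the medians are -1.56, -1.82 and -0.87 in donors A, B and C, and for the neutrophil markers -1.20, -1.31 and -1.42.

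Some of these counts rested on single arrays. Without the 6 h array of donor A, rises numbered 3 in place of 6 for chemoattractant receptors, 3 in place of 5 for class II genes, 3 in place of 7 for chromatin modifiers and 2 in place of 4 for dendritic cell markers. Falls then numbered 4 in place of 8 for AP-1 and ATF factors, 2 in place of 5 for the proteasome, 5 in place of 8 for glycolysis and hypoxia, 3 in place of 6 for heat shock genes and 2 in place of 4 for apoptosis. Without the 6 h array of donor B, 6 in place of 12 TCA cycle genes, 2 in place of 5 proteasome genes, 5 in place of 8 glycolysis and hypoxia genes and 2 in place of 4 apoptosis genes fell, and 2 in place of 4 dendritic cell markers and 2 in place of 4 genes of lipid storage rose. Without the unstimulated array of donor A, falls numbered 5 for AP-1 and ATF factors, 3 for the proteasome, 3 for heat shock genes and 1 for apoptosis. Without that of donor B, falls numbered 4, 2 and 3 for the first 3 of these groups, and rises numbered 3 for chemoattractant receptors, 3 for class II genes, 4 for chromatin modifiers and 2 for dendritic cell markers. Without that of donor C, falls numbered 4 for AP-1 and ATF factors, 4 for glycolysis and hypoxia, 2 for apoptosis and 2 in place of 4 for the TNF superfamily, and 2 dendritic cell markers rose.

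Adding slide to the fit moved the change of a gene by a median of 0.14 on the log2 scale and took away many calls. Of the 4399 genes called, 1904 were called with slide in the fit, which has 5 residual degrees of freedom in place of 8. The sign turned in 7. Those among them with the largest changes, all under 1 on the log2 scale without slide, were Klc2, Tagln2, Tcf7, Abraxas1, Mapt and Thap11. Klc2, a kinesin light chain, was at 0.63 without and -0.05 with slide, and Tcf7, a T cell transcription factor, at -0.49 and 0.03. Neither value with slide in the fit passed.

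**Figure D5:**
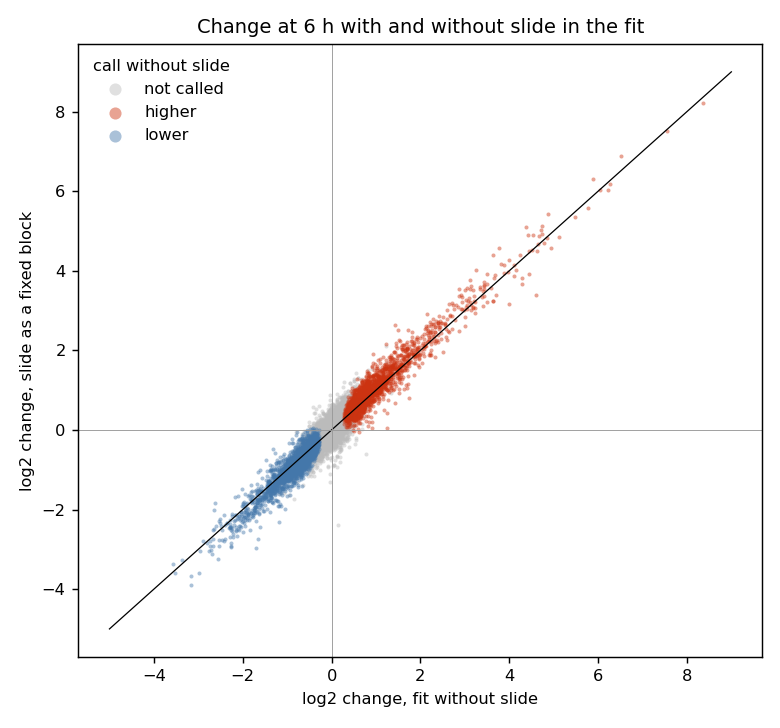
Each point is 1 of the 11108 genes tested, with the log2 change at 6 h from the fit without slide on the x axis and from the fit with slide as a fixed block on the y axis; the black line marks equal values and colours give the call without slide. Points lie along the line (r = 0.96 across genes), and 7 of the 4399 called genes lie on the other side of 0.

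Probes of the same gene mostly did not contradict each other. Among 3300 genes with more than 1 tested probe, 5 had probes called in opposite directions: Napa, Pacc1, Rala, Ubr2 and Vti1a. For Pacc1, a proton-activated chloride channel, 1 probe gave -0.93 and the other 0.33, and for Rala, a small GTPase, 0.44 and -0.60. No direction is given for these genes. Counted by probe, 7511 of 21766 were called (34.5%), 3361 higher (15.4%) and 4150 lower (19.1%). They include 1897 of 6646 tested probes with no gene symbol in the reference table, 915 of them higher and 982 lower.

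The 6 h values can be set beside those of 1 h and 24 h, which share the unstimulated arrays. Rsad2 had changed by 2.68 at 1 h, 8.35 at 6 h and 6.05 at 24 h. Tested directly, its level at 6 h was above that at 1 h by 5.67 (adjusted p = 1.4e-06), and the level at 24 h was lower than at 6 h by the value -2.31 (adjusted p = 0.0036). Cxcl10 was at 5.31, 7.55 and 3.67, and was thus already far up at 1 h. Daglb was at -0.13, -3.37 and -3.18. Its fall lay between 1 h and 6 h (adjusted p = 6e-07 for the difference), and the difference between 6 h and 24 h was 0.19 (adjusted p = 0.61). Tnf was at 5.17, 4.44 and 2.91, with a difference between 1 h and 6 h of -0.73 (adjusted p = 0.008).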

How the data were processed

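Messenger RNA of 12 samples was measured on Agilent 2-colour arrays. The deposited scanner files hold median spot and background intensity for 45018 spots per channel, not normalized, made with Agilent Feature Extraction 10.7.3.1 and protocol GE2_107_Sep09, per the file headers. The authors' deposited value table holds log2 ratios of sample over reference. The submitters' processing notes name limma for it, with no version or steps. On each array the authors' log2 value table correlated with the values derived here at r of at least 0.999 with a slope near 1, which settled its scale and direction. Per the file headers, a log10 ratio of the scanner software was deposited too, which was not used here. No array column was left without a sample.

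In R 4.3.3 with limma 3.58.1, background was corrected with normexp (offset 50; local backgrounds marked as outliers replaced by the array median) and each array was then normalised by loess (span 0.3; the 1639 control spots and outlier spots at weight 0). Of 41174 probes, 22951 had a symbol through their RefSeq accession in a GRCm38.p6 table. A probe was kept where the scanner software marked its Cy5 signal as well above background on every array of at least 1 group (21766 probes), and the brightest probe stood for a gene (11108 genes). All 12 arrays entered a linear model with 1 mean for each of the 4 groups and eBayes moderation, which left 8 residual degrees of freedom. A gene was called where its two-sided p, adjusted by Benjamini-Hochberg across the genes tested, was under 0.05. The fit was run on simulated arrays with independent noise, no slide effect and 200 of 11094 genes changed. It recovered 85% of changes of 1 and 100% of changes of 2 on the log2 scale, with 5 false calls. With few genes changed and no slide effect, that run cannot test the calls made here. A bound ("at least") sets the bright group against the lowest signal well above background in the Cy5 channel, and is open to dye bias. The number of arrays limits the precision, and p-values measure the spread between these samples.

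Gene lists, 45 of functions and 13 of cell type markers, are described by counts and medians. The members, lists and rules were chosen with earlier results of these data known. Named were the 20 largest rises and falls with groups that do not overlap; up to 4 called members of a list with the largest change (with under 3 called, the 2 with the smallest p); label markers; genes with opposed probes; genes whose sign turns with slide; the 6 with the largest SD at 6 h; up to 6 list genes with a bound; and genes with promoters shown. Further list members named were chosen for their role after their values were seen. Alternatives were other background corrections, scalings, filters and probe rules, the slide and donor as blocks, and leaving out each array. Some genes named by these rules are not reported here.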

Additional observations from a re-analysis of the deposited data

Results flagged for a closer look

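The 6 largest rises and 6 largest falls were set against the other times by a test of the difference itself (limma, Benjamini-Hochberg adjusted p over all genes). The level at 6 h was higher than at 1 h for Rsad2 by 5.67 (adjusted p = 1.4e-06), Cmpk2 by 5.79 (1.3e-07), Oasl1 by 4.13 (1.9e-07), Isg15 by 2.41 (6.2e-06) and Cxcl10 by 2.24 (adjusted p = 0.0047). The difference of 6 h minus 1 h was -3.24 for Daglb (adjusted p = 6e-07), -2.92 for Aatk (2e-05), -2.60 for Asb4 (5.7e-05), -2.27 for Cyp2s1 (adjusted p = 0.017) and -2.24 for Cxcr2 (adjusted p = 0.016). Il6 (0.34, adjusted p = 0.63) and S100a8 (-1.02, adjusted p = 0.21) did not pass for 6 h minus 1 h. The difference of 24 h minus 6 h was -3.88 for Cxcl10 (adjusted p = 0.00027), -3.00 for Cmpk2 (adjusted p = 1e-04), -2.31 for Rsad2 (adjusted p = 0.0036) and -1.09 for Isg15 (adjusted p = 0.0048). The other 8 did not pass for 24 h minus 6 h. Groups of 3 arrays were not searched for outlying arrays.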

How the results depend on the processing

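Against 4399 genes called, 2437 were called with local backgrounds as deposited, 2015 with median centring in place of loess (67.4% of them higher, against 40.6%), 1950 with slide as a fixed block (48.6% higher) and 1107 with the replicate block of donor and slide as a fixed block together (57% higher). Leaving out each array in turn gave 3372 to 4292 genes. Of genes changed at least 2-fold, 1314 in number, 2072 were called with the scanner software's processed signals, and leaving out each array gave 1206 to 1576. Against 7511 probes, 3675 were called with backgrounds as deposited, 3817 with median centring (70.9% higher, against 44.7%), 3262 with slide as a fixed block (53.8% higher) and 2014 with the replicate block and slide together (59.7% higher), and leaving out each array gave 5642 to 7272. The cause of these shifts was not tested. The fits with slide as a fixed block also leave fewer residual degrees of freedom. The other settings kept each count within 1.5 times, and no scaling moved the median of all genes by over 0.1.

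The labels give a donor letter, A, B or C, without a statement that it is the same animal in each group. Deviations from group means of same-letter arrays correlated at 0.17, 0.08 and -0.07, against -0.20 to 0.07 for different letters, and passed 0.1 for donor A only. A replicate block on all 12 arrays gave 4697 genes, 4356 of them among the 4399, and on the 6 arrays compared 4613, and on all 12 arrays it lost no call among the 222 called genes followed through the settings, while 5 of 20 genes named by the rules but not called passed with it. Of 224 followed, Itgax and H2-Ab1 included, 184 kept direction and side of the threshold with slide as a fixed block and 192 with median centring.

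Signs turned as follows, and the cause was not tested. With backgrounds as deposited, Ccr7 was at -0.13, Itgax at -0.43, H2-Ab1 at -0.26, Tcf7 at 0.51 and Mapt at 0.067. With processed signals, Clec4b1 was at 0.20 and Itgax at -0.077. With the mean of all probes, Napa was at -0.17, Pacc1 at -0.30 and Rala at -0.079. With slide as a fixed block, Klc2 was at -0.050, Tagln2 at -0.025, Tcf7 at 0.034, Abraxas1 at 0.036, Mapt at 0.061 and Thap11 at 0.0040, and with the replicate block added Klc2 was at -0.10 and Abraxas1 at 0.018. With differences chained within slides, Tagln2 was at -0.26, Tcf7 at 0.18, Abraxas1 at 0.091 and Mapt at 0.23. H2-Ab1, not called, ran from -0.069 to 0.14 when single arrays were left out.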
